A study of Mus musculus with 38 samples.

Results

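The genes of classical major histocompatibility complex (MHC) class I and of its peptide supply were followed through RNA-Seq libraries of mouse bone marrow niche cells and myeloma cells. All 10 genes chosen by symbol were found among the 13260 genes of the deposited table, and each has a value in all 38 libraries. They are the heavy chains H2-K1 and H2-D1, the light chain B2m, the peptide transporter subunits Tap1 and Tap2, the loading factor Tapbp, the immunoproteasome subunits Psmb8, Psmb9 and Psmb10, and the class I transactivator Nlrc5. Values are given in RPKM, in which the reads on a gene are divided by the gene's length and by the depth of the library, so that levels of different genes can be set side by side.

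The mice were of strain C57Bl/KaLwRijHsd, aged 8 to 10 weeks, and were injected intravenously with PBS vehicle (healthy) or with 1000000 cells of 5TGM1-GFP, a single murine myeloma line carrying green fluorescent protein (myeloma-bearing). Tissue was taken on day 23, and aliquots of 100 sorted cells were made into libraries. Endothelial cells (EC) were sorted as CD45-, Ter119- and CD31+, in 5 healthy and 5 myeloma-bearing libraries. Stromal progenitors (SP) were CD31-, Sca1+ and ALCAM- (5 and 5 libraries), and osteoprogenitors (OP) were CD31-, Sca1- and ALCAM+ (4 and 4 libraries). GFP+ myeloma cells (MM) came from the bone lining (5 libraries) and from the central marrow (5 libraries) of the myeloma-bearing mice. Replicates are named by the letters of the labels, and values are listed in the order C, L, M, N, O for healthy EC and SP, L, M, N, O for healthy OP, D, E, G, I, J for myeloma-bearing EC and SP and for myeloma cells, and D, G, I, J for myeloma-bearing OP.

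MHC class I molecules display peptides of the cell's own proteins to CD8+ T cells. Proteasomes cut proteins into peptides, the transporter associated with antigen processing (TAP) carries these into the endoplasmic reticulum, and tapasin (Tapbp) holds the transporter next to empty heavy chains paired with β2-microglobulin (B2m). Interferons raise most of these genes and exchange the constitutive catalytic subunits of the proteasome (Psmb5, Psmb6, Psmb7) for Psmb8, Psmb9 and Psmb10, and Nlrc5 drives class I promoters directly.

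Between 9735031 and 34883291 reads fell on genes in each library, with a median of 18358479. The summed level of 7 endothelial markers lay between 6365 and 21175 RPKM in healthy EC and between 8267 and 16300 RPKM in myeloma-bearing EC, against 3.71 to 98.6 RPKM in healthy SP. Osteoprogenitor markers summed to 8349 RPKM or more in every OP library and to at most 1328 RPKM in SP. The stromal progenitor list did not separate SP from EC, with a median sum of 1637 RPKM in healthy SP and 3935 RPKM in healthy EC. Neutrophil markers (5 genes) summed to 7233 RPKM in healthy SP library L and 8061 RPKM in myeloma-bearing SP library E, against at most 179.8 RPKM in the other SP libraries, although the sort took CD45- cells. Igj, a plasma cell marker, had a median of 6399 RPKM in bone-lining myeloma cells and at most 10.4 RPKM in the EC and 6.81 RPKM in the SP of myeloma-bearing mice. The healthy EC library L had the fewest genes above 1 RPKM, 4501 against 5834 to 7805 in the other EC libraries, and the calls and EC responses of the members that change with it are also given without it.

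Of the 10 genes, 7 lie on chromosome 17 in the MHC (GRCm38.p6). Psmb9, Tap1, Psmb8 and Tap2 are neighbours in a segment of 34292 bases at chr17:34182030-34216321, where 225 bases separate Psmb9 from Tap1. Tapbp (chr17:33919478-33929290) and H2-K1 (chr17:33996012-34000619) lie on one side of this segment and H2-D1 (chr17:35263094-35267497) on the other. B2m is at chr2:122147687-122153082, Psmb10 at chr8:105935728-105938392 and Nlrc5 at chr8:94434335-94527272.

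Promoter sequences are shown for the heavy chains and the light chain, the 3 members with the highest levels, because known interferon and NF-κB elements of class I genes lie there. The sequences are from RefSeq on GRCm38.p6 and read 5′ to 3′ on the strand of the gene, with every match to the searched motifs in capitals. The B2m stretch is chr2:122147517-122147656 on the plus strand.
B2m: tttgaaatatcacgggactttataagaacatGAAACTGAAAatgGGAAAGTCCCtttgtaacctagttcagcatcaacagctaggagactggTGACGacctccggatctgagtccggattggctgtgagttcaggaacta
In B2m the capitals mark, from the left, an interferon-stimulated response element (ISRE), a κB consensus and a cAMP response element (CRE) core.

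The stretch that holds the κB consensus and the interferon regulatory factor (IRF) core is nearly the same in both heavy chains, with 29 of 30 bases identical. It lies at chr17:34000429-34000458 (minus strand) for H2-K1 and at chr17:35262923-35262952 (plus strand) for H2-D1. Only these bases are shown, because the H2-K1 stretch lies within the annotated span of that gene given above, upstream of the start used here, and an exon of another annotated H2-D1 transcript covers that of H2-D1.
H2-K1: GGGGATTCCCCatctccacagTTTCACTTc
H2-D1: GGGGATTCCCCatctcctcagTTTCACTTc
Over the 240 bases that could be aligned without gaps, 73.3% were identical, with a longest shared run of 47 bases.

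Windows of 250 bases before to 50 bases after the start were held for 8 members and for 32851 promoters in all, and both strands were searched. The ISRE (GAAANNGAAA) was found in B2m alone among the members, and in 3.44% of all promoters. The IRF core (AANNGAAA), which the ISRE contains, was found in H2-K1, H2-D1 and B2m, and in 23.9% of all promoters. The gamma-activated site (TTCNNNGAA) was found in Psmb8 and in 8.30% of all promoters. The CRE core (TGACG) was found in 5 members (H2-K1, H2-D1, B2m, Tap1 and Psmb9) and in 20.8% of all promoters. The windows of Tap1 and Psmb9, which are read in opposite directions, overlap almost entirely, and their match is the same genomic bases. The κB consensus was found in H2-K1, H2-D1 and B2m and in 8.46% of all promoters. These matches are descriptions of the letters in these windows.

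The level of the whole group was ordered by cell type. Reads on the 10 genes made up a mean of 3.45% of all reads in healthy EC, 4.84% in myeloma-bearing EC, 4.34% in bone-lining and 4.54% in central marrow myeloma cells, but 0.325% in healthy SP and 0.830% in healthy OP. In myeloma-bearing mice the share was 0.619% in SP and 1.16% in OP. Most of these reads fell on B2m, so the share largely follows this gene. In library C, B2m had 410187 reads in healthy EC and 49133 in healthy SP. H2-K1 had 21034 and 3621 there, and H2-D1 18574 and 11613. The mean of log2 levels weighs the members equally. The members' mean log2(RPKM + 1) was 7.20 ± 0.73 (SD, n = 5) in healthy EC, 4.20 ± 0.55 (n = 5) in healthy SP and 5.16 ± 0.39 (n = 4) in healthy OP. In the myeloma-bearing niche it was 7.98 ± 0.27 in EC, 4.88 ± 0.72 in SP and 5.31 ± 0.87 in OP. The myeloma cells were the most uniform, at 7.44 ± 0.095 in the bone lining and 7.34 ± 0.084 in the central marrow.

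**Figure D1:**
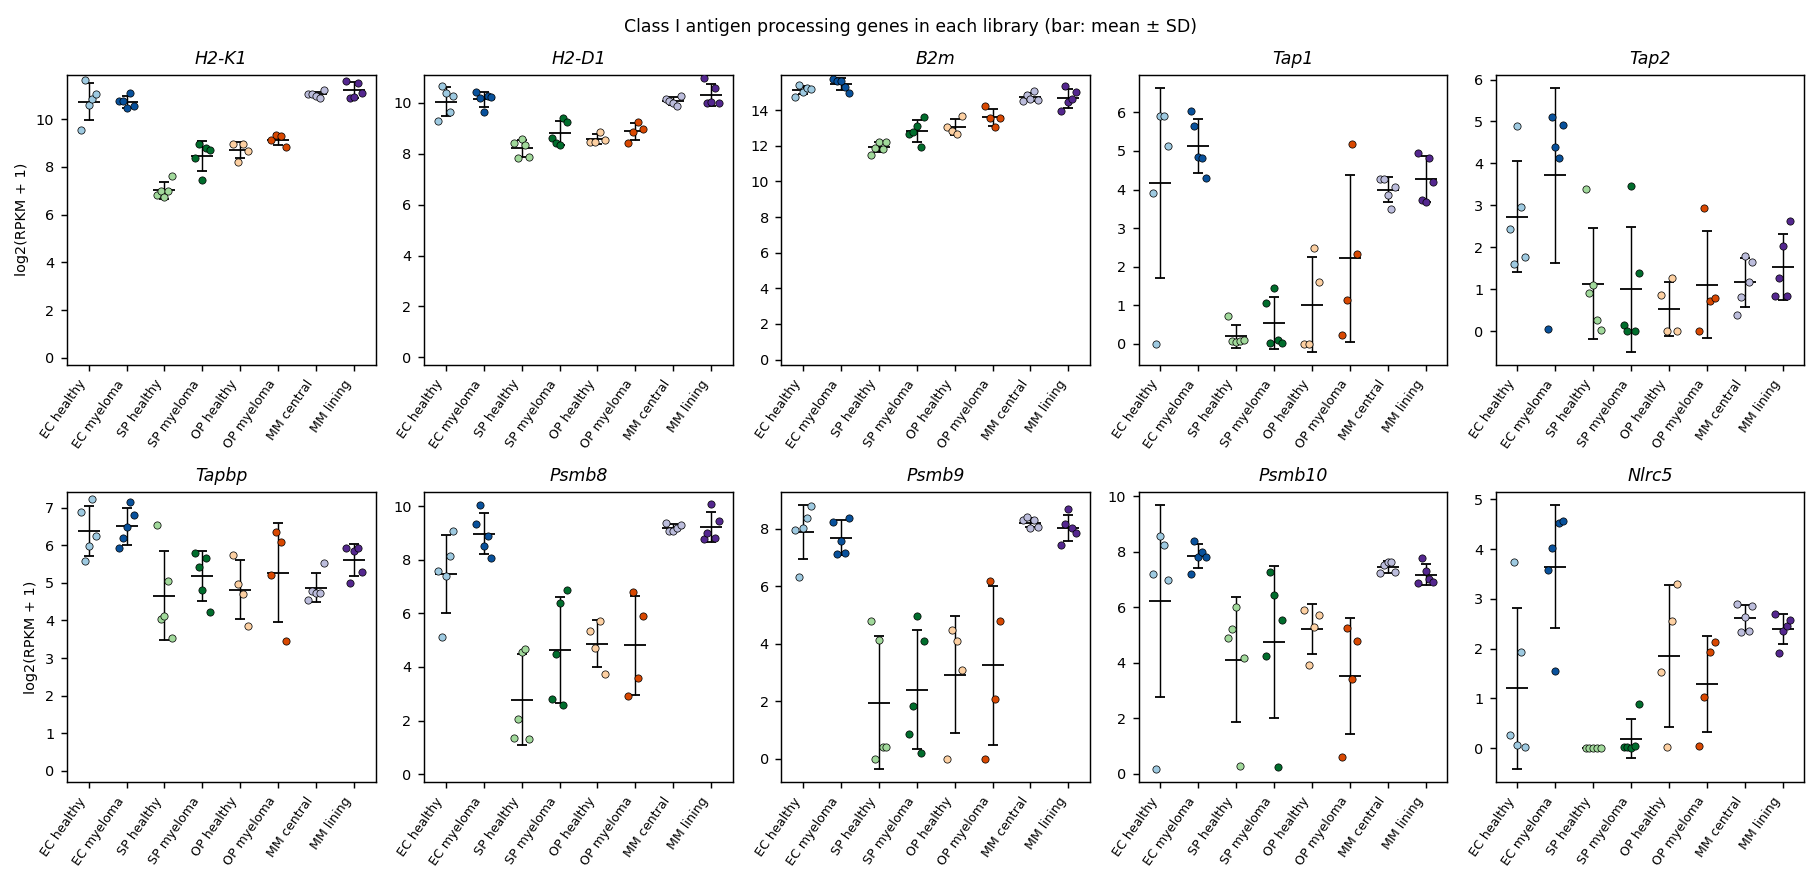
Levels of the 10 MHC class I and antigen processing genes in each of the 38 libraries, as log2(RPKM + 1), in the 8 groups (EC, endothelial; SP, stromal progenitor; OP, osteoprogenitor; MM, myeloma cells). Points are libraries and bars are group means ± SD. The heavy chains and B2m were read in every library, whereas Tap1, Tap2, Psmb9, Psmb10 and Nlrc5 fell to near 0 in some niche libraries. In SP, 7 of 10 libraries had 10 reads or fewer for Tap1 and 9 of 10 for Nlrc5.

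H2-K1 encodes one of the classical heavy chains and spanned more than an order of magnitude between cell types. In healthy EC it was at 738, 3155, 1541, 1844 and 2114 RPKM. In healthy SP it was at 112, 125, 104, 125 and 195 RPKM. In healthy OP it was at 495, 298, 494 and 409 RPKM. The 3 healthy cell types did not overlap, with EC highest and SP lowest. Myeloma cells reached the level of EC, at 3066, 1878, 1933, 2952 and 2220 RPKM in the bone lining and 2125, 2100, 2026, 1901 and 2379 RPKM in the central marrow.

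H2-D1, the other classical heavy chain in the list, varied less. It was at 618, 1619, 1344, 798 and 1222 RPKM in healthy EC. In healthy SP the values were 339, 230, 378, 329 and 236 RPKM, and in healthy OP 349, 350, 460 and 372 RPKM. EC lay above both, while SP and OP overlapped. In myeloma cells H2-D1 was at 1995, 1018, 1042, 1529 and 1031 RPKM in the bone lining and 1149, 1090, 1015, 946 and 1235 RPKM in the central marrow.

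The balance of the heavy chains was described by their ratio. The ratio of H2-K1 to H2-D1 had a median of 1.73 in healthy EC (range 1.15 to 2.31) and 0.380 in healthy SP (range 0.276 to 0.824), with a median of 1.09 in healthy OP (range 0.851 to 1.42). H2-K1 exceeded H2-D1 in all 5 healthy EC libraries, in 0 of 5 healthy SP libraries and in 3 of 4 healthy OP libraries. In myeloma-bearing mice the median was 1.51 in EC, 0.679 in SP and 1.21 in OP, and it was 1.85 in bone-lining and 1.93 in central marrow myeloma cells. These ratios are descriptions and carry no test. Of the 50-base stretches of their transcripts, 9.63% in H2-K1 and 12.8% in H2-D1 also occur in another gene, mainly in each other and in H2-Q genes, so the split of reads between the heavy chains is uncertain to that extent.

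**Figure D2:**
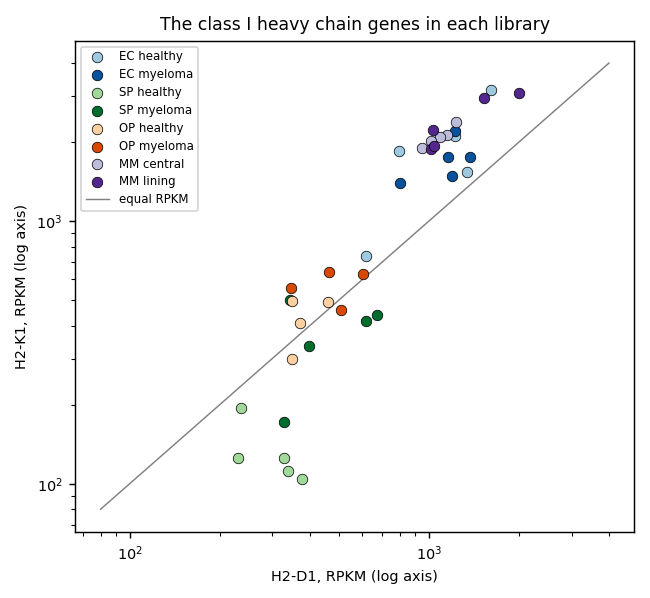
H2-K1 against H2-D1 in each of the 38 libraries, in RPKM on log axes, coloured by group, with a line at equal RPKM. All healthy SP libraries lie below the line, at ratios between 0.276 and 0.824, and all EC and myeloma cell libraries lie above it.

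B2m, the invariant light chain, was the most abundant transcript of the whole table by mean RPKM in both EC groups and in both myeloma cell groups. It ranked 19 in healthy SP and 8 in healthy OP. Healthy EC held 27609, 43481, 33557, 38677 and 37987 RPKM, healthy SP 2904, 3703, 4743, 3667 and 4660 RPKM and healthy OP 8576, 7273, 6587 and 12936 RPKM. As with H2-K1, the 3 healthy cell types did not overlap and followed the order EC, OP, SP. In myeloma cells B2m was at 15647, 41760, 22776, 25074 and 32695 RPKM in the bone lining and 23196, 29554, 24974, 34778 and 24640 RPKM in the central marrow. Relative to the sum of the heavy chains, B2m had a median excess of 11.6 in healthy EC, 9.84 in healthy SP, 10.7 in healthy OP and 7.65 in bone-lining myeloma cells.

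Transcripts of the peptide transporter were much lower and were missed in many niche libraries. Tap1 was at 14.1, 0, 59.5, 58.5 and 33.8 RPKM in healthy EC, where the library at 0 was L. In healthy SP it was at 0.653, 0.0397, 0.0315, 0.0466 and 0.0607 RPKM, and in healthy OP at 0, 0, 4.54 and 2.01 RPKM. Outside library L, every healthy EC library lay above every healthy SP and OP library. Bone-lining myeloma cells held Tap1 at 29.8, 12.1, 11.9, 27.2 and 17.2 RPKM. Its partner Tap2 was at 4.38, 2.03, 28.8, 6.8 and 2.42 RPKM in healthy EC, 9.41, 0.871, 1.14, 0.202 and 0.018 RPKM in healthy SP and 0.818, 0, 1.41 and 0 RPKM in healthy OP. Healthy EC and SP thus overlapped for Tap2.

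Counts of reads show how far these low levels can be trusted. Tap1 had 10 reads or fewer in 11 of the 28 niche libraries, Tap2 in 8, Psmb9 in 7, Psmb10 in 4 and Nlrc5 in 13, of which 9 were among the 10 SP libraries. H2-K1, H2-D1, B2m, Tapbp and Psmb8 had more than 10 reads in all 28, and every member did in all 10 myeloma cell libraries. The members were at 0 in 15 cases, and the level that 3 reads would give there ranged from 0.0201 to 0.367 RPKM. These floors cover counting error only, because reads without molecular identifiers are not independent molecules.

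Tapbp encodes tapasin, which holds heavy chains at the transporter, and was read in every library. It was at 118, 47.2, 62.5, 149 and 74.2 RPKM in healthy EC, 92.2, 15.4, 16.3, 32.3 and 10.7 RPKM in healthy SP and 52.7, 30.5, 25 and 13.4 RPKM in healthy OP. SP library C, at 92.2 RPKM, lay inside the EC range, and the other 4 SP libraries lay below it. Of its 50-base stretches, 23.2% also occur in other genes, most of them in the gene model Gm19412 (20.3%).

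The immunoproteasome subunits were on average higher in EC and myeloma cells than in SP and OP, with overlap in single libraries. Psmb8 (LMP7, the chymotrypsin-like subunit) was at 190, 33.7, 168, 279 and 535 RPKM in healthy EC. It was at 1.58, 3.16, 22.3, 24.3 and 1.46 RPKM in healthy SP and 39.3, 25.3, 51.6 and 12.3 RPKM in healthy OP. Every healthy EC library lay above every healthy SP library, and EC library L lay within the OP range. Psmb9 (LMP2) was at 245, 78.9, 257, 330 and 439 RPKM in healthy EC, 26.8, 0, 16.4, 0.341 and 0.333 RPKM in healthy SP and 0, 21.2, 16.2 and 7.56 RPKM in healthy OP. For Psmb9 EC did not overlap with SP or OP, library L included.

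Psmb10 (MECL-1), the remaining immunoproteasome subunit, was at 147, 0.134, 383, 300 and 126 RPKM in healthy EC, with 3 reads in library L. In healthy SP it was at 29, 36.7, 63.4, 0.216 and 17 RPKM and in healthy OP at 59.4, 14, 38.6 and 52.3 RPKM. Without library L, EC lay above both. In bone-lining myeloma cells the means were 633 ± 273 RPKM for Psmb8, 271 ± 88.4 RPKM for Psmb9 and 148 ± 42.0 RPKM for Psmb10 (SD, n = 5).

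Nlrc5 was the lowest member by mean RPKM in EC and SP of both conditions and in myeloma-bearing OP. In healthy OP it ranked above Tap1 and Tap2, and in myeloma cells above Tap2. It was at 0.2, 12.3, 0.0431, 2.79 and 0.0178 RPKM in healthy EC, at most 0.0066 RPKM in healthy SP, with 3 of 5 libraries at 0, and at 1.91, 0.0114, 4.86 and 8.84 RPKM in healthy OP. EC and OP overlapped, and both held libraries near 0. Myeloma cells had steady levels, between 2.76 and 5.45 RPKM in the bone lining and between 4.04 and 6.47 RPKM in the central marrow.

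Healthy cell types were compared by limma on log2(RPKM + 1), leaving out genes that exceeded 1 RPKM in fewer than 4 of those libraries, and a gene was called at an adjusted p below 0.1 with a log2 difference beyond 1. In bulk libraries of sorted cells, fewer cells expressing a gene and less RNA per cell cannot be told apart. Of the 9 members tested between healthy EC and healthy SP, 6 were called, all higher in EC, where 6.69% of all genes tested (566 of 8457) were called higher. Tap1 passed the filter through EC libraries alone, so a difference in it was built into the selection (5 of 8 were called without it), and Nlrc5 was not tested. The median log2 difference of the 9 members tested, Tap1 included, was 3.21, against -0.21 over all genes. The heavy chain H2-K1 differed by 3.71 ± 0.410 (log2, SE, limma adjusted p = 2.44e-05) and H2-D1 by 1.83 ± 0.358 (limma adjusted p = 0.00297). B2m differed by 3.21 ± 0.169 (limma adjusted p = 1.75e-08), the smallest error of the 6, but it was not called by voom-limma over all 38 libraries (3.17, adjusted p = 0.301). Among the immunoproteasome subunits, Psmb8 differed by 4.67 ± 0.933 (limma adjusted p = 0.00342) and Psmb9 by 5.93 ± 1.01 (limma adjusted p = 0.00109). Tap1 differed by 3.98 ± 1.08 (limma adjusted p = 0.0237), and was not called by voom-limma on those libraries (adjusted p = 0.139).

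The other members tested between EC and SP had log2 differences of 1.60 for Tap2 (limma adjusted p = 0.312), 1.73 for Tapbp (0.134) and 2.12 for Psmb10 (0.433). Without EC library L, Psmb10 was called at 3.63 (limma adjusted p = 0.0295) and Tapbp at 1.93 (limma adjusted p = 0.0866), and the count rose to 8. The share of all genes called without this library is not given here, so the rise cannot be set against genes at large. Without SP library C, Tapbp was called at 2.20 (limma adjusted p = 0.0536). Without any of the EC libraries C, M, N or O, Tap1 no longer passed the filter and 5 members were called. Without SP library L, high in neutrophil markers, 6 were called.

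Between healthy EC and healthy OP, 5 of 10 members were called, all higher in EC, where 6.67% of all genes tested (551 of 8258) were called higher. These contrasts share the 5 healthy EC libraries, so they are not separate evidence. The median log2 difference of the members was 2.05, against -0.22 over all genes. With voom-limma on those libraries 2 were called, H2-D1 and Psmb9, while H2-K1 (adjusted p = 0.114), B2m (0.125) and Psmb8 (0.290) were not. By limma, H2-K1 differed by 2.03 ± 0.401 (limma adjusted p = 0.00444), H2-D1 by 1.47 ± 0.356 (limma adjusted p = 0.0151) and B2m by 2.07 ± 0.192 (limma adjusted p = 1.59e-05). Psmb9 showed the largest difference of the called members, 4.97 ± 0.933 (limma adjusted p = 0.00324), and Psmb8 differed by 2.59 ± 0.795 (limma adjusted p = 0.0518). The call of Psmb8 was lost without EC library N (2.42, limma adjusted p = 0.104) or O (2.18, 0.111) and without OP library M (2.53, 0.126) or O (2.20, 0.164), and after upper-quartile scaling (2.35, 0.105). Nlrc5 had a log2 difference of -0.65 (limma adjusted p = 0.761).

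The transporter and loading genes were not called between EC and OP, with log2 differences of 3.16 for Tap1 (limma adjusted p = 0.143), 2.20 for Tap2 (0.116), 1.57 for Tapbp (0.163) and, for Psmb10, 1.02 (0.749). These calls changed with the fit. Without EC library L, Tap1 was called at 4.20 (limma adjusted p = 0.0106), Tap2 at 2.48 (0.0777), Tapbp at 1.77 (0.0795) and Psmb10 at 2.54 (0.0163), so that 9 of 10 members were called. The share of all genes called in that fit is not given here either, so this rise is not read as particular to the members. Without EC library O, Tap2 was called at 2.44 (limma adjusted p = 0.0907). With library L kept, a single limma fit over all 38 libraries also called Tap1 (adjusted p = 0.00614), Tap2 (0.0606) and Tapbp (0.0440), and a pseudocount of 0.1 called Tap2 (0.0910).

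Healthy OP exceeded healthy SP in 2 of 7 members tested, where 1.69% of all genes tested (147 of 8707) were called higher. H2-K1 was higher by 1.68 ± 0.325 (limma adjusted p = 0.0117) and B2m by 1.14 ± 0.249 (limma adjusted p = 0.0231). Neither was called by voom-limma over all 38 libraries (adjusted p = 0.796 and 0.853). The call of B2m was also lost without OP library O, at 0.94 (limma adjusted p = 0.124), and without the filter on low values (limma adjusted p = 0.115). H2-D1 differed by 0.36 (limma adjusted p = 0.697) and Psmb8 by 2.09 (limma adjusted p = 0.329). Tap1, Tap2 and Nlrc5 did not pass the filter on low values.

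**Figure D3:**
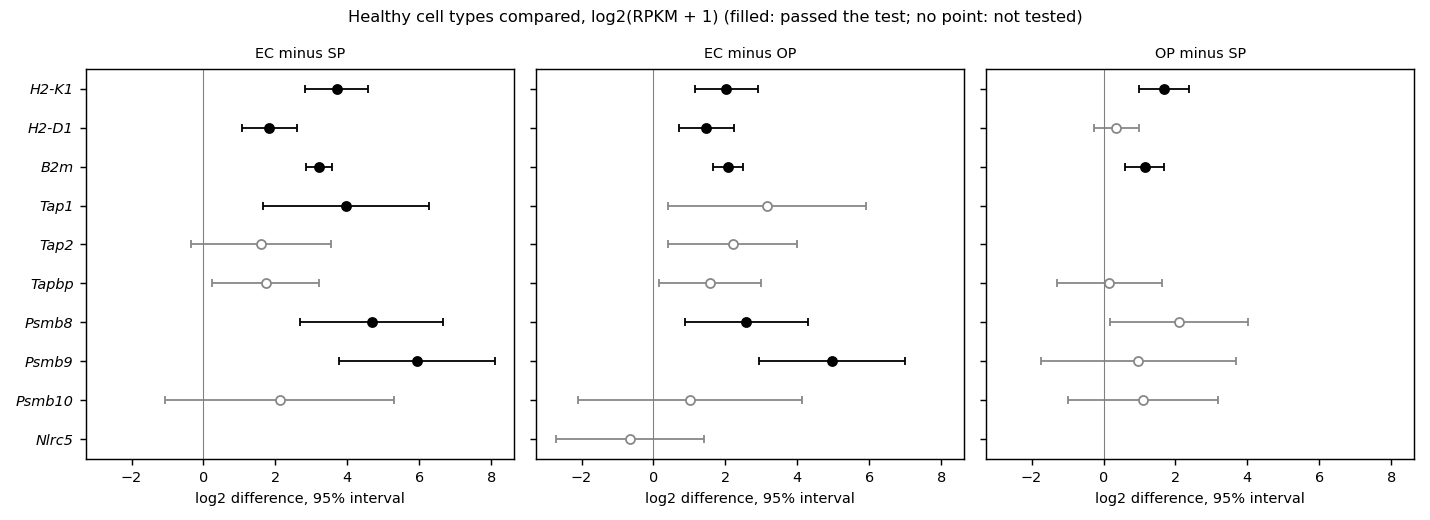
Log2 differences of the members between healthy cell types, on log2(RPKM + 1), with 95% confidence intervals from limma. Filled points passed the test, genes without a point were not tested, and H2-K1 and B2m are called in EC against SP, EC against OP and OP against SP.

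Genes around the members were taken from lists of the pathway. Between healthy EC and SP, nonclassical class I genes were called higher in 2 and lower in 1 of 8 tested. H2-T23, the Qa-1b chain that is a ligand of inhibitory receptors of natural killer cells, was higher by 3.68 (limma adjusted p = 0.0079), and the iron regulator Hfe by 3.97 (0.0241). Mr1, which presents vitamin metabolites, was lower, at -2.81 (limma adjusted p = 0.024). Hfe and Mr1 passed the filter through the libraries of a single cell type. The aminopeptidase Erap1, which trims peptides in the endoplasmic reticulum, was higher by 2.94 (limma adjusted p = 0.0544), whereas the loading chaperone Pdia3 was at -2.45 (0.0481) and the translocon subunit Sec61b at -1.27 (0.071), so 1 of the 10 loading and trimming genes tested was called higher and 2 lower, where 6.69% of all genes were called higher and 10.6% lower. The proteasome activator subunit Psme1 was higher by 2.74 (limma adjusted p = 0.0362), the regulators Stat2 by 2.86 (0.0529) and Irf1 by 2.05 (0.049), the kinase Jak1 by 1.82 (0.0421) and the inhibitory ligand Lgals9 by 2.16 (0.0437). Of the constitutive catalytic subunits 0 of 3 were called, the largest difference being -1.83 for Psmb5 (limma adjusted p = 0.379).

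Between healthy EC and OP the same lists held H2-T23 (2.63) and the IgG and albumin receptor Fcgrt (2.0) among 8 nonclassical genes, Erap1 (3.33) among 10 loading and trimming genes, Psme1 (3.59) and Psme2 (1.53) among 5 activators and assembly factors, Jak1 (2.09) and the interferon receptor chain Ifnar2 (1.82) among 7 receptors and kinases, and Lgals9 (3.82) among 2 inhibitory ligands, all higher in EC, where 6.67% of all genes were called higher. The class I regulators gave 0 calls of 12 (largest Rfxap, 2.68, limma adjusted p = 0.221), although 3 of them were called with all 38 libraries in a single limma fit and Nfyc (-1.79) by voom-limma over all 38. The constitutive subunits gave 0 of 3 (largest Psmb5, -1.51, limma adjusted p = 0.540). Between OP and SP no gene of any of the 7 lists was called in the fit of these groups alone, the largest differences being 3.41 for Cd1d1 (limma adjusted p = 0.203) and 2.52 for Nfyc (limma adjusted p = 0.118). With all 38 libraries in a single limma fit Nfyc (adjusted p = 0.0178) and Irf1 (1.89, 0.0980) were called, and voom-limma over all 38 called Cd1d1.

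The exchange of proteasome subunits was read as the log2 ratio of each immunoproteasome subunit to its constitutive counterpart, with 0.1 RPKM added to both. Psmb8 to Psmb5 was 4.36 ± 2.60 (SD, n = 5) in healthy EC, -3.06 ± 1.93 (n = 5) in healthy SP and -0.35 ± 1.61 (n = 4) in healthy OP. Psmb8 exceeded Psmb5 in all 5 healthy EC libraries, in 0 of 5 healthy SP libraries and in 2 of 4 healthy OP libraries. The difference between EC and SP was 7.41 without overlap, which reached the smallest p the design allows, 0.00794 in a two-sided exact permutation test, and 0.0556 after adjustment over 21 comparisons. Psmb9 to Psmb6 differed between EC and SP by 6.88 with the same exact permutation p of 0.00794 and the same adjusted value, although Psmb9 was below Psmb6 in every library of every group. Psmb10 to Psmb7 did not separate EC, with a difference of 1.56 against SP (exact permutation p = 0.492, adjusted 0.846) and -0.37 against OP (exact permutation p = 0.937, adjusted 0.937). The latter difference was 1.74 without healthy EC library L, 0.20 without healthy OP library L and 1.47 between group medians, so that its direction rests on those libraries. Between EC and OP the differences were 4.71 for Psmb8 to Psmb5 (exact permutation p = 0.0317, adjusted 0.133) and 5.54 for Psmb9 to Psmb6 (exact permutation p = 0.0159, adjusted 0.0833). None of the 21 comparisons passed an adjusted 0.05. Psmb5 was down to 0.131 RPKM in healthy EC library L and 0.246 RPKM in myeloma-bearing EC library D, which widens the spread of that ratio in EC.

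**Figure D4:**
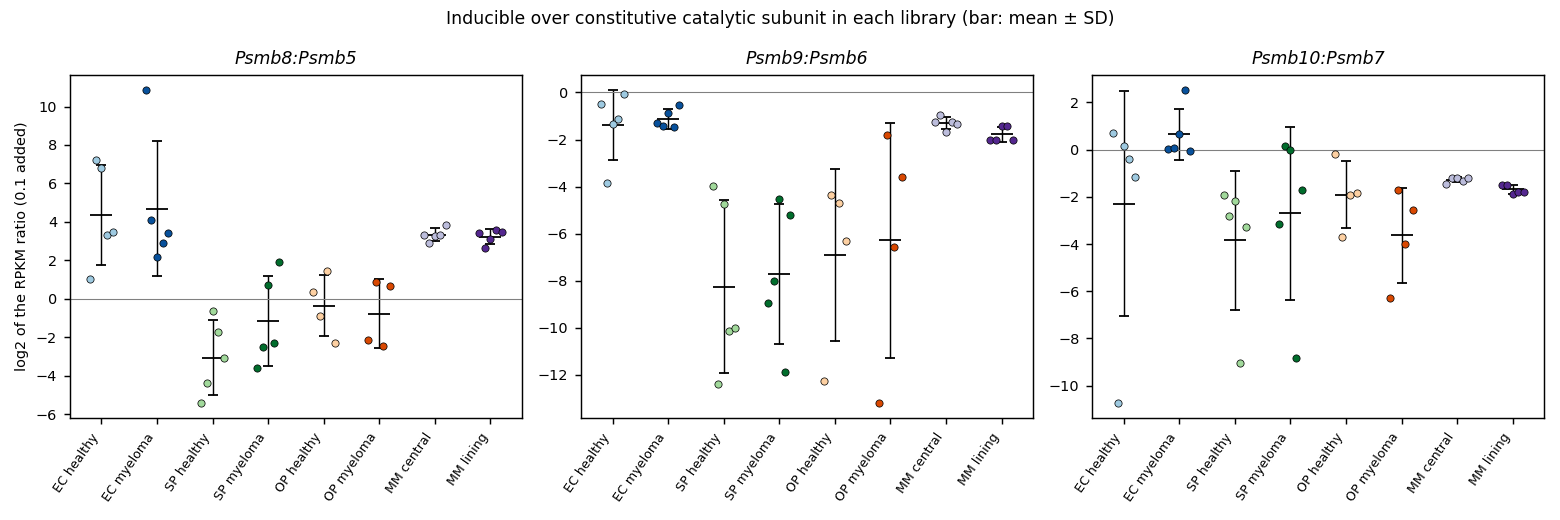
Log2 ratio of each immunoproteasome subunit to its constitutive counterpart (Psmb8 to Psmb5, Psmb9 to Psmb6, Psmb10 to Psmb7) in each library, after adding 0.1 RPKM to both, with group means ± SD as bars. The Psmb8 to Psmb5 ratio is above 0 in all EC and myeloma cell libraries and below 0 in all healthy SP libraries, and that of Psmb9 to Psmb6 is below 0 in every library.

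Bone-lining myeloma cells were set against niche cells sorted from the myeloma-bearing mice. Against SP, 8 of 10 members were called higher in myeloma cells, where 23.5% of all genes tested (2224 of 9460) were called higher. Nlrc5 passed the filter through myeloma libraries alone, and 7 of 9 were called without it. Macrophage and dendritic markers, 6 of 12 in the table, summed to between 184 and 908 RPKM in bone-lining myeloma cells, with a median of 699.7 RPKM against 5.37 RPKM (0.237 to 60.5) in SP and 24.04 RPKM (2.35 to 119.7) in OP. Most of this sum was Cd68, with a median of 666 RPKM in bone-lining myeloma cells, where the macrophage receptor Csf1r had a median of 0 and reached 0.729 RPKM. The part of these markers in the member counts was not tested. Leaving out SP library E, high in neutrophil markers, gave 8 members. Against OP, 7 of 10 were called higher, where 24.5% (2278 of 9316) were. These contrasts share the 5 bone-lining myeloma libraries. The medians of the members tested were 2.32 against SP (Nlrc5 included) and 1.74 against OP, beside 0.35 and 0.39 over all genes. Psmb8 differed by 4.59 ± 0.766 against SP (limma adjusted p = 0.000381) and 4.42 ± 0.703 against OP (limma adjusted p = 0.000339). For Psmb9 the differences were 5.63 ± 0.817 (limma adjusted p = 0.000119) and 4.77 ± 0.989 (limma adjusted p = 0.0023). Those of H2-K1 were 2.75 ± 0.290 (limma adjusted p = 6.65e-06) and 2.06 ± 0.220 (limma adjusted p = 1.40e-05), and those of H2-D1 1.50 ± 0.282 (0.000995) and 1.43 ± 0.270 (0.00122).

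Smaller or less stable were the differences of the light chain, the transporter and Psmb10. B2m was higher in myeloma cells by 1.86 ± 0.291 against SP (limma adjusted p = 0.000232) and by 1.08 ± 0.273 against OP (limma adjusted p = 0.008), and the latter fell under the log2 limit of 1 without bone-lining library E (0.915) or OP library I (0.908). Tap1 was higher by 3.74 ± 0.556 against SP (limma adjusted p = 0.000148) and by 2.06 ± 0.862 against OP (limma adjusted p = 0.0817). That second call was lost without any bone-lining library and without OP library D, G or J (limma adjusted p between 0.104 and 0.213). Psmb10 was higher by 2.43 ± 1.01 against SP (limma adjusted p = 0.0785), which was lost without any bone-lining library or SP library D (limma adjusted p between 0.116 and 0.149), and by 3.66 ± 0.782 against OP (limma adjusted p = 0.00286). With voom-limma over all 38 libraries Psmb10 was called neither against SP (adjusted p = 0.118) nor against OP (0.194), and Tap1 was not called against OP (0.293). Nlrc5 was higher by 2.20 ± 0.412 against SP (limma adjusted p = 0.000943), and had a difference of 1.11 against OP (limma adjusted p = 0.127). Tap2 and Tapbp were not called in either contrast, with log2 differences between 0.33 and 0.52.

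Against EC, the myeloma cells showed no member called higher, although 24.4% of all genes tested (2243 of 9207) were, and 1 member called lower, beside 17.1% (1574 of 9207). That member was Tap2, at -2.20 ± 0.914 (limma adjusted p = 0.0805). Its call was lost without 8 of the 10 libraries in turn, EC libraries E, G, I and J and bone-lining libraries D, E, G and I (limma adjusted p between 0.116 and 0.161). B2m had a difference of -0.78 (limma adjusted p = 0.017) and H2-K1 of 0.47 (limma adjusted p = 0.080), both under the log2 limit. Without EC library D, Tapbp was called at -1.05 (limma adjusted p = 0.0642), and without EC library G, Nlrc5 was called at -1.77 (limma adjusted p = 0.0184).

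The neighbouring pathway genes moved in both directions between myeloma cells and niche cells. The list of nonclassical genes also holds H2-Ke6, which is not class I and was among those called against EC. Of the genes of this list, 2 were called higher and 4 lower of 12 tested against EC. Against SP, 4 were called higher and 1 lower of 9, and against OP 3 higher and 2 lower of 11. Several genes of the list passed the filter on low values through 1 group alone, namely Fcgrt in all 3 contrasts, Hfe against EC, and H2-Q5 and H2-T10 against SP. Without these, 2 were higher and 2 lower of 10 against EC, 2 higher and 0 lower of 6 against SP, and 3 higher and 1 lower of 10 against OP. H2-Q5 was higher by 2.59, 3.99 and 3.32 against EC, SP and OP, and H2-M3, which presents formylated peptides, by 3.26 against SP and 4.88 against OP, while the receptor Fcgrt was lower in myeloma cells, with log2 differences of -7.26 (against EC), -6.13 (SP) and -5.90 (OP), as was the kinase Jak1 at -5.20, -3.72 and -4.35. Ifngr1, a chain of the interferon-γ receptor, was at -3.20, -3.05 and -2.33. Irf1, a transcription factor of the interferon response, was at -2.29, -2.17 and -2.49, and its relative Irf9 at -2.41, -2.12 and -2.38. In the opposite direction, Erap1 was higher by 1.50, 4.21 and 4.59, the constitutive subunit Psmb7 by 1.66, 1.83 and 2.06, and Cd274 (PD-L1, a T cell inhibitory ligand) by 3.03, 4.88 and 5.09. Another inhibitory ligand, Lgals9, was lower against EC (-6.86) and SP (-4.45), so this list of 3 was called in both directions there. Cd274 was at 23.5 to 53.3 RPKM in bone-lining myeloma cells and at most 0.269 RPKM in OP, so that against OP it passed the filter through myeloma libraries alone, as Fcgrt did through niche libraries in all 3 contrasts. Peptide loading and trimming genes were called higher in myeloma cells in 8 of 11 against EC, 2 of 11 against SP and 4 of 11 against OP, with 0 lower in each, beside 24.4%, 23.5% and 24.5% of all genes higher. The count against SP is thus no higher than the share over all genes. Against OP, Tapbpl passed the filter through myeloma libraries alone, and 3 of 10 loading and trimming genes were called higher without it. Among the class I regulators, 5 of 12 were lower and 1 higher against EC, 2 lower and 3 higher against SP, and 3 lower and 1 higher against OP, beside 17.1%, 18.8% and 18.4% of all genes lower, so that the counts against SP are near the shares over all genes.

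The main question of the study was what changes in niche cells when myeloma is present. By voom-limma the study reported differentially expressed genes in EC, SP and OP, and its gene set analysis found interferon response sets raised in each. In the fits made here, no member was called by limma in EC, SP or OP of myeloma-bearing against healthy mice. These fits of each cell type alone gave few or no calls over the whole table. When the 38 libraries shared one estimate of the spread, 258 genes were called by limma in EC, 31 in SP and 16 in OP, and 295, 41 and 8 by voom-limma. In EC, 0 of 10 members were called, where 0% of 7880 genes were, and at an unadjusted p below 0.05 there were 3 members (B2m, Psmb8 and Nlrc5) and 414 genes. In SP, 0 of 8 members were called, where 0% of 8747 genes were, and 2 members (H2-K1 and B2m) and 437 genes had an unadjusted p below 0.05. In OP, 0 of 9 members were called, where 0.0115% of genes were (1 of 8664), and 0 members had an unadjusted p below 0.05. Applied to whole reads recovered from the RPKM values of those libraries, voom-limma called no member in any of the 3 cell types either. The members' median log2 differences were 0.64 in EC, 0.61 in SP and 0.34 in OP, beside 0.071, -0.0006 and -0.028 over all genes. Without healthy library L the median in EC was 0.24. Scaling by upper quartiles moved the median of all genes in EC from 0.071 to 0.222.

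In myeloma-bearing SP, H2-K1 was at 335, 501, 172, 440 and 418 RPKM, after 104 to 195 RPKM in healthy SP. The groups overlapped only in that myeloma-bearing library G, at 172 RPKM, lay below healthy library O, at 195 RPKM. The log2 difference was 1.44 ± 0.382 (limma adjusted p = 0.811, 95% confidence interval 0.635 to 2.24). With all 38 libraries in a single limma fit it was called, at an adjusted p of 0.0146, where 0.252% of genes (22 of 8747) were called higher, but voom-limma over all 38 libraries gave an adjusted p of 0.847. B2m was at 6600, 6894, 8788, 3880 and 12524 RPKM in myeloma-bearing SP, and 4 of these 5 libraries lay above the healthy range. Its log2 difference was 0.90 ± 0.275 (limma adjusted p = 0.811). H2-D1 was at 397, 344, 328, 671 and 615 RPKM, overlapping with healthy SP, with a difference of 0.60 ± 0.333 (limma adjusted p = 0.956).

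Some genes of the endothelial list and neutrophil markers were also higher in some of these SP libraries. The sum over the 7 endothelial list genes was 209, 72.7, 226, 2.60 and 243 RPKM in myeloma-bearing SP, with a median of 209 RPKM against 15.9 RPKM in healthy SP, and Fabp4 (182, 7.04, 158, 1.88 and 176 RPKM) and Vcam1 (26.5, 53.5, 61.5, 0.0354 and 40.6 RPKM) gave most of it. Eng reached 25.4 RPKM, while Cdh5, Pecam1, Selp and Tek were at most 0.327 RPKM in these libraries. Neutrophil markers summed to 67.7, 8061, 94.8, 5.33 and 0.193 RPKM, with library E, the highest in H2-K1, far above the others. Without library E the log2 difference of H2-K1 was 1.31 (limma adjusted p = 0.786), and without healthy library L, which held 7233 RPKM of neutrophil markers, it was 1.43 (limma adjusted p = 0.924). The part of these markers in the difference was otherwise not tested.

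The other members in SP were less even. Psmb8 was at 5.98, 21.1, 83.3, 4.95 and 116 RPKM in myeloma-bearing SP, overlapping with the healthy range of 1.46 to 24.3 RPKM, at a difference of 1.84 ± 1.04 (limma adjusted p = 0.956). Psmb9 (0.45), Psmb10 (0.63), Tapbp (0.52) and Tap2 (-0.13) had smaller log2 differences. Tap1 reached 1.07 and 1.74 RPKM in libraries D and G and stayed at or under 0.068 RPKM in the others, and neither it nor Nlrc5 passed the filter.

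In EC the heavy chains were level between conditions. H2-K1 was at 1754, 1750, 1399, 2202 and 1486 RPKM in myeloma-bearing EC, inside the healthy range, with a log2 difference of 0.00 ± 0.342 (limma adjusted p = 1.00, 95% confidence interval -0.715 to 0.717). H2-D1 was at 1371, 1156, 798, 1228 and 1195 RPKM, with a difference of 0.10. B2m was at 55043, 51104, 51420, 39932 and 31971 RPKM, of which 3 libraries exceeded the healthy maximum of 43481 RPKM, and its difference was 0.33 ± 0.154 (limma adjusted p = 0.925, 95% confidence interval 0.00659 to 0.650).

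Psmb8 and Nlrc5 had larger and more variable differences in EC. Psmb8 was at 639, 1065, 367, 474 and 269 RPKM in myeloma-bearing EC, overlapping with healthy EC, at 1.51 ± 0.627 (limma adjusted p = 0.922). Nlrc5 was at 10.9, 15.1, 1.94, 22.1 and 22.6 RPKM in myeloma-bearing EC, after 0.2, 12.3, 0.0431, 2.79 and 0.0178 RPKM in healthy EC, so the groups overlapped through healthy libraries L and N. Its log2 difference was 2.44 ± 1.14 (limma adjusted p = 0.925). It was called with all 38 libraries in a single limma fit (adjusted p = 0.0422), where 2.09% of genes (165 of 7880) were called higher, and in voom-limma over all 38 libraries, at 5.10 (adjusted p = 0.0398), where 2.73% (215 of 7880) were called higher. Myeloma-bearing libraries I and J, the highest in Nlrc5, held macrophage and dendritic markers at 148.7 and 35.7 RPKM, against at most 2.74 RPKM in D, E and G. Osteoprogenitor markers summed to 155 and 124 RPKM there, against at most 42.6 RPKM. Healthy library O held 24.3 and 104 RPKM of these markers, with Nlrc5 at 0.0178 RPKM. The part of these markers in the difference was not tested. Psmb9 was at 300, 137, 190, 142 and 332 RPKM, inside the healthy range, with a log2 difference of -0.19. Psmb10 (147, 339, 222, 252 and 224 RPKM) differed by 1.60, Tap1 (64.8, 48.8, 27.5, 27.2 and 18.8 RPKM) by 0.95, Tap2 by 0.99 and Tapbp by 0.12, none of them called. Healthy library L carried part of these values. Without it the log2 differences were 0.0890 for Psmb10, -0.0880 for Tap1, -0.0796 for Tapbp, 0.71 for Tap2, 0.93 for Psmb8, -0.58 for Psmb9 and 3.08 for Nlrc5, and 0 of 10 members were called.

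In OP, the conditions overlapped for every member. H2-K1 was at 555, 639, 631 and 460 RPKM, of which 3 libraries exceeded the healthy maximum of 495 RPKM, with a difference of 0.45 (limma adjusted p = 0.981). B2m was at 19031, 11908, 8548 and 11925 RPKM, with a difference of 0.53 (limma adjusted p = 0.981). Psmb10 was at 0.544, 37, 9.7 and 26.9 RPKM, against 14 to 59.4 RPKM in healthy OP, with a difference of -1.69 (limma adjusted p = 0.981) that was -0.73 without library D. Tap1 reached 35.2 RPKM in library I and at most 3.98 RPKM in the other 3, with a difference of 1.20, and Psmb8 had a difference of -0.07.

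**Figure D5:**
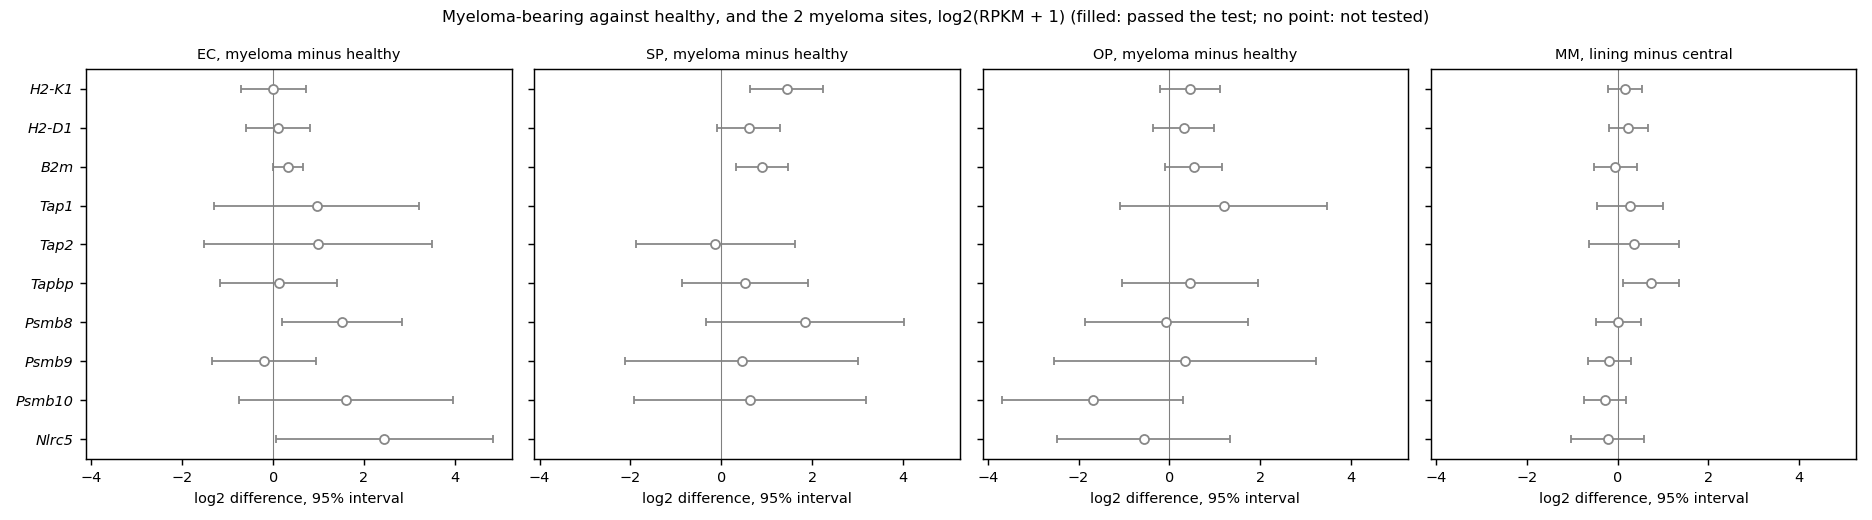
Log2 differences of the members on log2(RPKM + 1), with 95% confidence intervals from limma, for myeloma-bearing minus healthy EC, SP and OP and for bone-lining minus central marrow myeloma cells. No point passed the test; the intervals of H2-K1 and B2m in SP and of B2m, Psmb8 and Nlrc5 in EC, and of Tapbp between the myeloma sites, lie above 0 before adjustment, and genes without a point were not tested.

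Whether the response to myeloma differed between cell types was tested as an interaction. For EC against SP, 0 of 10 members and 0% of 10596 genes were called by limma, with an unadjusted p below 0.05 for 2 members and 552 genes. H2-K1 had the smallest p of the members there, where the EC response minus the SP response was -1.44 ± 0.519 on the log2 scale (limma adjusted p = 0.909). For EC against OP, 0 of 10 members and 0% of 10756 genes were called, with an unadjusted p below 0.05 for 1 member (Nlrc5) and 516 genes. For SP against OP, 0 of 10 members and 0% of 10735 genes were called, with an unadjusted p below 0.05 for 0 members and 437 genes. Voom-limma called 0 members in each of the 3.

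No gene of the pathway lists was called in EC, SP or OP of myeloma-bearing mice in the fits of each cell type alone either. In SP the largest differences per list included H2-T23 at 2.81 ± 0.79 (limma adjusted p = 0.811), Irf1 at 2.24 ± 0.66 (limma adjusted p = 0.811), Jak2 at 1.90 and Lgals9 at 1.17. H2-T23 ranged from 29.5 to 86.2 RPKM in myeloma-bearing SP and from 0.667 to 26.6 RPKM in healthy SP, without overlap, and was called with all 38 libraries in a single limma fit (adjusted p = 0.0428) but not by voom-limma over all 38. In EC they included the proteasome activator Psme3 at 3.69 ± 1.19 (limma adjusted p = 0.821), Creb1 at 2.58 ± 1.14 (limma adjusted p = 0.925), Lgals9 at 1.42 ± 0.50 (limma adjusted p = 0.872) and Socs1, a feedback inhibitor of cytokine signalling, at -1.66. With all 38 libraries in a single limma fit, Psme3 (adjusted p = 0.0227), Creb1 (0.0927) and the inhibitory ligand Cd47 (1.26, 0.0996) were called in EC, and voom-limma over all 38 libraries called Psme3, Cd47 and Lgals9. Lgals9 was at 383 to 901 RPKM in myeloma-bearing EC and at 67.2 to 348 RPKM in healthy EC, without overlap. In OP they included Irf2 at 2.14 ± 0.89 (limma adjusted p = 0.981) and Cd47 at -0.26. H2-T23 in SP and Lgals9 in EC were named as the largest of their lists. The share of all genes whose groups do not overlap is not given here.

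Between both sites of myeloma cells, bone lining and central marrow, limma called 0 of 10 members, where 0.203% of genes (18 of 8857) were called, and 1 member (Tapbp) had an unadjusted p below 0.05. Tapbp had the smallest p, at 60.1, 31, 56.9, 59.7 and 38.4 RPKM in the bone lining and 22.4, 26.6, 25.7, 25.3 and 45.4 RPKM in the central marrow. Every bone-lining library lay above the central marrow libraries other than J, and the log2 difference was 0.74 ± 0.287 (limma adjusted p = 0.775). The other 9 members had log2 differences between -0.28 and 0.36, and no other tool run called a member. The ratio of Psmb10 to Psmb7 was -1.69 ± 0.187 (SD, n = 5) in the bone lining and -1.28 ± 0.112 (n = 5) in the central marrow, without overlap, a difference of -0.41 (exact permutation p = 0.00794, the smallest possible, and 0.0556 after adjustment over 21 comparisons). Psmb9 to Psmb6 differed in the same direction by -0.48 (exact permutation p = 0.0476, adjusted 0.167), with overlap. Cd274 was at 23.5 to 53.3 RPKM in the bone lining and 12.3 to 19.4 RPKM in the central marrow, at 1.23 ± 0.30 (limma adjusted p = 0.199).

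The spread between replicates of the members was smallest in myeloma cells. Their median SD on the log2 scale was 0.448 in bone-lining and 0.220 in central marrow myeloma cells, against 1.13 in healthy EC, 0.541 in myeloma-bearing EC, 0.767 in healthy and 0.665 in myeloma-bearing SP, and 0.824 in healthy and 1.29 in myeloma-bearing OP. Over all genes with a mean above 1 RPKM the medians were 0.748 and 0.490 in the myeloma cells, 1.83 in healthy and 1.54 in myeloma-bearing EC, 1.32 and 1.44 in SP, and 1.20 and 1.23 in OP, so that myeloma-bearing OP was the group in which the members spread more than genes at large.

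The genes whose level most resembled the members' mean log2 level over all 38 libraries were Gimap6 (Pearson r = 0.889), Ppp1r16b (0.885), Cd93 (0.876), Gpm6a (0.866), 2310001H17Rik (0.864), Timeless (0.851), Gdpd3 (0.847) and Prkd2 (0.845). Once the mean of each cell type was removed, the closest were Cxcl9 (0.754), H2-T23 (0.702), Ifi44 (0.701), Iigp1 (0.693), Usp18 (0.688), Sult1a1 (0.682), Ipo8 (0.674) and Arrdc4 (0.672). Several of these latter genes, Cxcl9, Ifi44, Iigp1 and Usp18, are known interferon-induced genes. Only means of cell types were removed, so differences between healthy and myeloma-bearing libraries remain in the latter coefficients. The points share library, cell type and condition, so the coefficients are descriptions without a test. Each member correlated with the mean of the other 9 at 0.446 (Tapbp) to 0.892 (Psmb9) over the 38 libraries, and at -0.009 (H2-K1) to 0.592 (Psmb8) after removal of cell type means.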

How the data were processed

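RNA-Seq libraries of 100 sorted cells were made by SmartSeq2 and sequenced as 50-base single-end reads. Per the labels and the study's methods, the authors aligned reads to GRCm38 with STAR 2.4.0, counted them per gene with featureCounts (Subread 1.4.5-p1), retained those with more than 1 CPM in 4 or more samples, and deposited RPKM values computed with edgeR.

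From the deposited RPKM, whole reads were recovered for all 13260 genes (100% of values whole within 0.0001), and used for depth and for voom-limma. Differences were tested with limma 3.58.1 (R 4.3.3) on log2(RPKM + 1), with a mean-variance trend, for genes that exceeded 1 RPKM in 4 or more libraries of a comparison. P-values were adjusted by Benjamini-Hochberg over all genes tested, and genes were called at an adjusted p below 0.1 and a log2 difference beyond 1. Ratios were tested by two-sided exact permutation over libraries (scipy 1.17.1; threshold 0.05 after adjustment). Python 3.11.15, numpy 2.4.6, pandas 2.3.3 and matplotlib 3.10.9 were also used. The fits were tested on simulated data.

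All 10 members are named. From each pathway list, up to 3 called genes by size, or the largest tested where none was called, could be named for a comparison, together with the 8 genes most like the members' mean. Members, lists and rules were chosen with earlier results of these data known. The list called nonclassical also holds H2-Ke6, a gene of the MHC region that is not class I. Replicate letters recur across groups. The sources used here do not say whether a letter marks 1 mouse, and correlations of same-letter libraries were too low to treat them as pairs. All 38 columns were used. Promoter entries were held for 8 members; those of Tap2 and Nlrc5 were not analysed here.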

Additional observations from a re-analysis of the deposited data

Results flagged for a closer look

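In 80 sets of libraries (10 members in 8 groups), 5 held a library that stood far from the others of its group, by a rule under which chance flags about 1 in 20. Tap1 in healthy SP was at 0.653 RPKM (38 reads) in library C and between 0.0315 and 0.0607 RPKM in the others. Tap2 in myeloma-bearing EC was at 0.0430 RPKM (2 reads) in library D and between 16.4 and 33.6 RPKM in the others. Tapbp in central marrow myeloma cells was at 45.4 RPKM in library J and between 22.4 and 26.6 RPKM in the others. Psmb10 in healthy EC was at 0.134 RPKM (3 reads) in library L and between 126 and 383 RPKM in the others. Nlrc5 in myeloma-bearing SP was at 0.854 RPKM (105 reads) in library J and at most 0.0289 RPKM in the others. The causes were not tested.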

How the results depend on the processing

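The precision of these values is limited by 100-cell aliquots, in which transporter and Nlrc5 transcripts often had 10 reads or fewer, and by groups of 4 or 5 libraries. Counts of members called moved by over 1.5 times as follows. With all 38 libraries in a single fit, 1 member was called in the EC response, 1 in the SP response and 8 in EC against OP. With voom-limma over all 38 libraries, 1 was called in the EC response, 0 in OP against SP and 0 in myeloma cells against EC. With voom-limma on the same libraries, 2 were called in EC against OP (H2-K1, B2m and Psmb8 lost) and 0 in myeloma cells against EC. The latter count was also 0 at an adjusted p below 0.05, with a pseudocount of 0.1 and without the filter, and OP against SP gave 1 without the filter. Leaving out each library in turn gave 4 to 9 members in EC against OP (9 without healthy EC library L), 1 to 2 in OP against SP (1 without healthy OP library O), 0 to 2 in myeloma cells against EC (2 without EC library D), 5 to 8 in EC against SP, 7 to 8 in myeloma cells against SP and 5 to 6 in myeloma cells against OP, where the full set of libraries gave 7. For most of these fits the share of all genes called is not given here, so such changes cannot be set against genes at large.

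With the replicate letter as a replicate block, 6 members were called in EC against SP, 4 in EC against OP (Psmb8 at 2.56, limma adjusted p = 0.131), 2 in OP against SP, 1 in myeloma cells against EC, 8 against SP, 6 of 9 tested against OP (B2m at 0.92) and 0 between myeloma sites. This fit kept only libraries whose letter is in both groups, which drops healthy EC or SP library C and bone-lining library E in the contrasts with OP, where B2m at 0.92 and Psmb8 at 2.56 are also the values without that library and without any block (limma adjusted p = 0.0179 and 0.0889). Same-letter correlations of deviations lay between -0.0427 and 0.115, with medians above those of different letters in all 7 comparisons, which was too low to treat the libraries as pairs. Whether a letter marks 1 mouse is not given in the sources used here.

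Directions that reversed belonged to differences that were not called. With voom-limma, H2-K1 in the EC response was at -0.12 (same libraries) and -0.19 (all 38), and Psmb9 there was at 0.0274 after upper-quartile scaling. Psmb8 in the OP response took 0.22, 0.0707 and 0.0214 under 3 alternatives, and Psmb8 between myeloma sites -0.0102 and -0.105 under 2. Among log2 ratios, a pseudocount of 1 gave -0.0503 for Psmb9 to Psmb6 in the SP response and 0.0521 for Psmb10 to Psmb7 in EC against OP. Medians in place of means gave 1.47 for Psmb10 to Psmb7 in EC against OP, -0.0471 for Psmb8 to Psmb5 and -0.17 for Psmb9 to Psmb6 in the EC response, and 0.11 for Psmb8 to Psmb5 between myeloma sites. The causes were not tested.

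Leaving out single libraries spanned 0 for these EC responses: H2-K1 -0.30 to 0.23, H2-D1 -0.0924 to 0.25, Tap1 -0.0880 to 1.39, Tapbp -0.0796 to 0.33 and Psmb9 -0.58 to 0.0306. In the SP response it did so for Tap2 (-0.41 to 0.11), Psmb9 (-0.20 to 1.16) and Psmb10 (-0.33 to 1.76), and in the OP response for Psmb8 (-0.74 to 0.55) and Psmb9 (-0.64 to 1.42). Between myeloma sites B2m ranged from -0.22 to 0.13 and Psmb8 from -0.20 to 0.13, and Tapbp ranged from -0.15 to 0.63 in OP against SP and from -0.27 to 0.69 in myeloma cells against OP. Ratios that spanned 0 were Psmb8 to Psmb5 in the EC response (-1.21 to 1.04), the OP response (-1.06 to 0.18) and between myeloma sites (-0.20 to 0.0575), Psmb9 to Psmb6 in the EC (-0.37 to 0.58), SP (-0.49 to 1.60) and OP responses (-1.16 to 2.92), and Psmb10 to Psmb7 in the SP response (-0.16 to 2.67) and in EC against OP (-1.12 to 1.74).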
